A study of Mus musculus with 2 samples.

Results

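Within the primary tumour of mice with EO771-HEVM3 tumours, 602 non-cycling cancer cells carried RNA of Slurp1, Mt4 or both, genes that mark stratified squamous epithelium such as epidermis. The cells were selected on these genes. A member had at least 2 unique molecular identifiers (UMIs, each standing for 1 captured RNA molecule) of Slurp1 and Mt4 together. It also had keratin RNA (Krt8 and Krt18 at 5 or more UMIs and at least 500 of every 1000000 UMIs) and low RNA of leukocyte, endothelial and collagen genes. Members had fewer than 5 UMIs of Mki67, Top2a and Cenpf, fewer than 3 of the trefoil genes Tff1 and Tff2, and fewer than 3 of Sprr1a and Cyp1a1. They made up 602 of the 2576 cells that met every limit other than the one on Slurp1 and Mt4 (23.4%, 95% Clopper-Pearson interval 21.7 to 25.1), 602 of the 12427 cells of that library and 602 of 24044 cells in all. The comparison cells were the 1637 cells of the same gate with 0 UMIs of both genes, and 337 cells with 1 UMI lay between them and the members.

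The data were 2 libraries of droplet-based 3′ single-cell RNA sequencing, 1 from primary tumours and 1 from lymph nodes of the same 6 C57BL/6J mice, pooled for each tissue. HEVM3 cells derive from the mouse breast cancer line EO771 and were obtained by the study after 3 rounds of selection in mice for cells that reached the lung from lymph nodes. The study methods describe female mice obtained at 5 to 6 weeks, without a transgene in this experiment, and the age at collection is not given in the sources used here. No treatment is named for either tissue, and the labels do not tie cells to single mice. A difference between cells and a difference between tumours of single mice therefore cannot be told apart. With 1 library per tissue there is no replicate, so no test was run, and all bracketed 95% intervals cover counting error only.

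Slurp1 encodes a small secreted protein of the Ly6/uPAR family that is made by keratinocytes and acts on nicotinic acetylcholine receptors. Loss of the human protein causes a thickened skin of palms and soles. Mt4 encodes a metallothionein, a cysteine-rich protein that binds zinc and copper, and its expression is known from stratified squamous epithelium. The related Mt1 and Mt2 are made in most tissues and are induced by metals and glucocorticoids, while Mt3 is known from brain. Sfn, which encodes the epithelial adaptor 14-3-3 sigma, and Nupr1, which encodes a stress-induced nuclear protein, were the other genes by which these cells had been described.

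In the GRCm38 annotation (GENCODE M21), Slurp1 (ENSMUSG00000022596) spans chromosome 15 from 74724318 to 74728034 on the minus strand, within a row of Ly6 family genes that includes Slurp2 (74742764 to 74746693), Lynx1 (74747852 to 74753046) and Ly6d (74762056 to 74763620). Mt4 (ENSMUSG00000031757) spans chromosome 8 from 94137197 to 94139031 on the plus strand, with Mt3 (94152607 to 94154146), Mt2 (94172664 to 94173568) and Mt1 (94179082 to 94180327) following on that strand. All are protein-coding. The 3′ assay counts reads near the end of a transcript and does not resolve these genes' exons.

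The sequences below are the 150 bases before the RefSeq transcript start (GRCm38.p6), 5′ to 3′ on the strand of the gene. Mt4 is shown beside Mt1 and Mt2 because it was the metallothionein used in the selection, and Gbp2, Oas3 and Igtp because these interferon-induced genes were higher in members and held a match. Capitals mark matches on either strand to the metal response element (TGCACNC or TGCGCNC) in the metallothionein genes, and to the interferon-stimulated response element (a GAAA and a second GAAA, 2 bases of any kind apart) or the gamma-activated site (TTCNNNGAA) in the others.
Mt4 (chr8:94137054-94137203, plus strand): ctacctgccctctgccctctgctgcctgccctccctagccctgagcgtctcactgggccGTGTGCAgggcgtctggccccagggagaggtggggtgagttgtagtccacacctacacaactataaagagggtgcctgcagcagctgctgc
Mt1 (chr8:94178939-94179088, plus strand): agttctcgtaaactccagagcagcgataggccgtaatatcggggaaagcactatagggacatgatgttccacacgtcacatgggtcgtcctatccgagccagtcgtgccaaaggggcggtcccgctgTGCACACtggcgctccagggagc
Mt2 (chr8:94172468-94172617, plus strand): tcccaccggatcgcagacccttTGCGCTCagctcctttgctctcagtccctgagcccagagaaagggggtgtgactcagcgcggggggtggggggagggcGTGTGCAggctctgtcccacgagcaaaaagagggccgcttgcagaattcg
Gbp2 (chr3:142620513-142620662, plus strand): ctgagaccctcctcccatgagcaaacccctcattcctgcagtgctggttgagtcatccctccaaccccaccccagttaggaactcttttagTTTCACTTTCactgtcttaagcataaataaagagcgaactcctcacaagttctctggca
Oas3 (chr5:120777660-120777809, minus strand): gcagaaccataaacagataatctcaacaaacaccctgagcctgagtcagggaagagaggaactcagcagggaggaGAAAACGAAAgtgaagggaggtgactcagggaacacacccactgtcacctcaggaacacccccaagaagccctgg
Igtp (chr11:58199406-58199555, plus strand): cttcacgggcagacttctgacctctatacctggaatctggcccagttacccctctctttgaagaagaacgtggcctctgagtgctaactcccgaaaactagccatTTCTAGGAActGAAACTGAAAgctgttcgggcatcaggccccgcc

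The Mt4 window held 1 metal response match, 91 bases before the start. Mt2 had matches 128 and 50 bases before the start in this window, and Mt1 had 1 at 23 bases. Over 300 bases around the start (250 before and 50 after), Mt4 had no further match. Mt1 also had matches at bases 3 and 21 of the transcript, and Mt2 at base 5 and at 223 bases before the start. In the same 300 bases, TGCACNC or TGCGCNC was found in 25.7% of all 32851 RefSeq promoters. Gbp2 and Oas3 each held an interferon-stimulated response match, 59 and 75 bases before the start, and Igtp held 1 at 34 bases and a gamma-activated site match at 45 bases. Irf7, which was also higher in members, had 0 matches to either in its 300 bases. The interferon-stimulated response element was in 3.44% of all promoters and TTCNNNGAA in 8.30%. The matches in the 6 windows do not overlap each other. Promoters were listed for 65 of the 86 genes that were 1.5-fold higher in members, and this element was in 12.5% of their 80 promoters, beside 3.24% of the 7411 promoters of all genes compared. The metal response element was in 23.75% of the promoters of the higher genes, 27.3% of those of the lower genes and 36.4% of those of all genes compared. For the gamma-activated site the shares were 10%, 2.27% and 6.21%. In the higher and lower genes these were 8 of 80 and 2 of 88 promoters. The interferon-stimulated response element was in 4.55% of the promoters of the lower genes. A match is a description of these letters and not of a bound site.

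Members were shallowly marked by the genes that chose them. Their 602 cells held 1049 Slurp1 UMIs, 126 counts per 1000000 summed UMIs (CPM, [118 to 134]), and 2134 Mt4 UMIs, 256 CPM [245 to 267]. A member had between 2 and 48 UMIs of the pair, with a median of 3 and quartiles of 2 and 7. In 229 members both genes were found, in 270 Mt4 alone and in 103 Slurp1 alone. Just outside the limit, the 337 cells at 1 UMI had 40.4 CPM of Slurp1 and 45.2 CPM of Mt4. Members held 17.4% of the Slurp1 UMIs and 28.1% of the Mt4 UMIs of the whole library, so most RNA of both genes lay in cells that other limits left out.

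The level of each gene was higher in cells that carried the other. Among the 2576 gate cells, Mt4 was at 59.3 CPM [56.1 to 62.8] where Slurp1 had 0 UMIs, 101 CPM [90.4 to 112] at 1 UMI and 210.2 CPM [195 to 226] at 2 or more. Slurp1 in turn was at 28.2, 54.9 and 86.8 CPM in cells with 0, 1 and 2 or more Mt4 UMIs. Depth moved with these groups, with median UMIs of 8527, 11281 and 13119 per cell for Slurp1. After each cell was thinned to 5000 UMIs, the share of cells with an Mt4 UMI was 16.7%, 27.8% and 42.2%.

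Members were also deeper cells. Their median was 12015.5 UMIs and 3076 detected genes, against 8061 UMIs and 2368 genes in comparison cells and 9767 UMIs in cells at 1 UMI. After thinning to 5000 UMIs, 14.2% [12.7 to 15.8] of the gate reached 2 UMIs of the pair, with 506 cells left out. The mitochondrial share was similar, with medians of 2.63% in members and 2.70% in comparison cells.

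Free RNA in droplets could place a few UMIs in any cell, so the genes were also counted in cells that should lack them. After thinning to 1000 UMIs, 3.61% [2.92 to 4.41] of gate cells had a Slurp1 UMI and 6.75% [5.81 to 7.79] an Mt4 UMI. In 405 T cells of the same library these shares were 0.148% and 0.144%, and in 311 macrophages 0.277% and 0.115%. With 2 or more UMIs of the pair there were 0 of the T cells, with an interval up to 0.907%, and 0 of the macrophages, with an interval up to 1.18%. These cells had been limited to 1 Krt8 and Krt18 UMI, which also leaves out droplets with more RNA of cancer cells. Without that limit, added after the data were seen, the shares were 0.909% and 1.12% in 544 T cells and 0.658% and 0.779% in 420 macrophages, and 23 (4.23%) and 18 (4.29%) of them had 2 or more UMIs of the pair. Unthinned, the Slurp1 shares were 19.1%, 0.247% and 0.965% and the Mt4 shares 26.3%, 0.494% and 0.643%, at median depths of 9106.5, 1852 and 3929 UMIs.

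The members were compared with epithelial markers and with those of other cells the gate could hold. Krt8 and Krt18, which the gate required, were at 2371 and 1988 CPM, and Epcam, an epithelial adhesion molecule, was at 91.9 CPM against 119 CPM in comparison cells. Among skin keratinocyte markers, Krt14 stood at 346 CPM, but Krt5 was at 0.240 CPM, and Krt1, Krt15, Trp63, Lor, Krtdap and Col17a1 were at 0 UMIs, so 6 of the 10 markers of that list were not found. A count of 0 here allows up to 0.360 CPM. Krt10 was at 11.9 against 11.8 CPM and Dsg3 had 1 UMI in members. T cell markers summed to 18.5 CPM in members and 19.4 CPM in comparison cells, endothelial markers to 4.44 and 4.64 CPM, and neutrophil markers to 51.3 and 67.6 CPM. The fibroblast list was at 772 and 786 CPM, nearly all of it Dcn, which 95.5% of members carried, while Col1a2 was at 3.48 CPM. Of 5 macrophage and monocyte markers tested, 4 were called lower in members (Apoe, Fcer1g, Lyz2 and Tyrobp) and 0 higher, with a median log2 ratio of -0.96, while the list of 10 summed to 878 and 830.0 CPM because Cd74 was at 802 and 684 CPM. Of 4 erythroid genes tested, 3 were called higher (Hbb-bt, Hba-a2 and Hba-a1) and 0 lower, with a median of 0.76. The list of 5 summed to 266 against 158 CPM, and Hbb-bt was at 42.7 against 9.73 CPM. Over all genes 1.21% were called higher and 1.26% lower. Hbb-bt UMIs lay in 2.99% of members and 2.08% of comparison cells. Doublet scores were alike, with 3.82% of members and 3.79% of comparison cells above the 94th percentile of the library.

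What else distinguished the members? Of 7119 genes with a mean of at least 10 CPM, 86 were at least 1.5-fold higher in members (1.21%) and 90 at least 1.5-fold lower (1.26%). At 2-fold the counts were 16 and 18. The median log2 ratio was -0.05, and 90% of genes lay between -0.40 and 0.33. Centred on that median, the split was 114 higher and 69 lower. The counts were 50 and 54 with comparison cells weighted to the clusters of the members, and 160 and 165 with members chosen after thinning.

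Among genes with a mean of at least 20 CPM and a UMI in at least 20% of members, those furthest above the comparison cells were Tppp3, Gbp2 and Nupr1. Tppp3, a tubulin-binding protein gene, was at 193 CPM [184 to 203] in members and 63.6 CPM [59.7 to 67.8] in comparison cells, a log2 ratio of 1.60 [1.49 to 1.72]. Gbp2, an interferon-induced guanylate-binding protein gene, was at 200.1 CPM [191 to 209.9] against 72.2 CPM [68.0 to 76.6], a ratio of 1.47 [1.36 to 1.58]. Nupr1 was at 640.4 CPM [623 to 658] against 241 CPM [234 to 249.3], a ratio of 1.41 [1.35 to 1.47]. The pair of genes that named these cells besides Slurp1 and Mt4 did not behave alike. Sfn was at 454 CPM [440 to 469] against 404 CPM [394 to 414], a ratio of 0.17 [0.11 to 0.23]. Sfn thus differed little across the gate, and the members are described below by Slurp1 and Mt4 alone.

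These differences were spread over many cells. The median member had 282 CPM of Nupr1 and the median comparison cell 56.3 CPM, with upper quartiles of 777 and 299 CPM, so the groups overlapped widely. After thinning to 5000 UMIs, 66.7% of members and 44.5% of comparison cells had a Nupr1 UMI, 36% and 17.4% a Tppp3 UMI, and 34.8% and 18.6% a Gbp2 UMI, with 49 and 403 cells left out. Unthinned, the shares were 80.1% and 51.6%, 52.5% and 24.6%, and 50% and 24.9%. For Sfn they were 71.1% and 67.0% after thinning and 83.6% and 72.3% before.

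The other 9 of the 12 genes named as highest were Oas3, Suox, Myh14, Sbsn, Anxa8, Tmem37, Zbp1, Plaat3 and Clic3, with log2 ratios from 1.22 down to 0.94. Zbp1, a sensor of Z-form nucleic acid, was at 153 against 77.5 CPM, and Oas3, a synthase of the RNase L activator, at 41.4 against 17.8 CPM. Suox, the mitochondrial sulphite oxidase gene, was at 138 against 61.1 CPM. Sbsn, which encodes the keratinocyte protein suprabasin, was at 27.2 against 12.9 CPM, and Anxa8, a membrane-binding annexin gene, at 51.9 against 25 CPM. In every one of the 9, the level of cells at 1 UMI lay between those of members and comparison cells.

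Alb, Trf and Apoe had the lowest ratios of the 12 genes named as lower in members. Alb (albumin) was at 21.1 CPM [18.1 to 24.5] in members and 69.2 CPM [65.1 to 73.5] in comparison cells, a log2 ratio of -1.71 [-1.95 to -1.48]. Trf (transferrin) was at 26.6 against 72.0 CPM, a ratio of -1.43, and Tfrc, the transferrin receptor gene, at 19.0 against 39.1 CPM, a ratio of -1.04. Rbp4, a retinol carrier gene, was at 26.2 against 50.3 CPM. Foxq1, a forkhead transcription factor gene, was the most widely found of the group, at 134 CPM [126 to 142] against 221 CPM [213 to 228] and a ratio of -0.72. Enpp2, Lrig3, Spp1, Pid1 and Mdn1 had ratios from -0.91 to -0.67. With comparison cells weighted to the clusters of the members, Pid1 and Mdn1 were at -0.49 and -0.54 and not called. Over all alternatives their ratios ranged from -0.94 to -0.49 and from -0.82 to -0.53.

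Apoe and Tmsb4x had log2 ratios of -1.24 and -0.94, and single cells held much of the Tmsb4x RNA. The 5 cells with most Tmsb4x held 46.8% of its UMIs in members and 26.7% in comparison cells, and for Apoe these shares were 18.2% and 27.1%. In members, 5 cells also held 25% of the Alb, 21.1% of the Rbp4 and 20.5% of the Spp1 UMIs. Apoe is also one of the macrophage markers given above, of which Fcer1g was at 10.9 against 22.9 CPM, Lyz2 at 11.9 against 23.2 CPM and Tyrobp at 8.16 against 14.4 CPM, while Cd74 was higher in members. Without the 33 members (5.48%) and 76 comparison cells (4.64%) that had 3 or more UMIs of immune or erythroid genes, the ratio was -0.36 for Tmsb4x, which was then no longer called, and -1.37 for Apoe. Those of Nupr1 and Gbp2 were then 1.41 and 1.47.

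**Figure D1:**
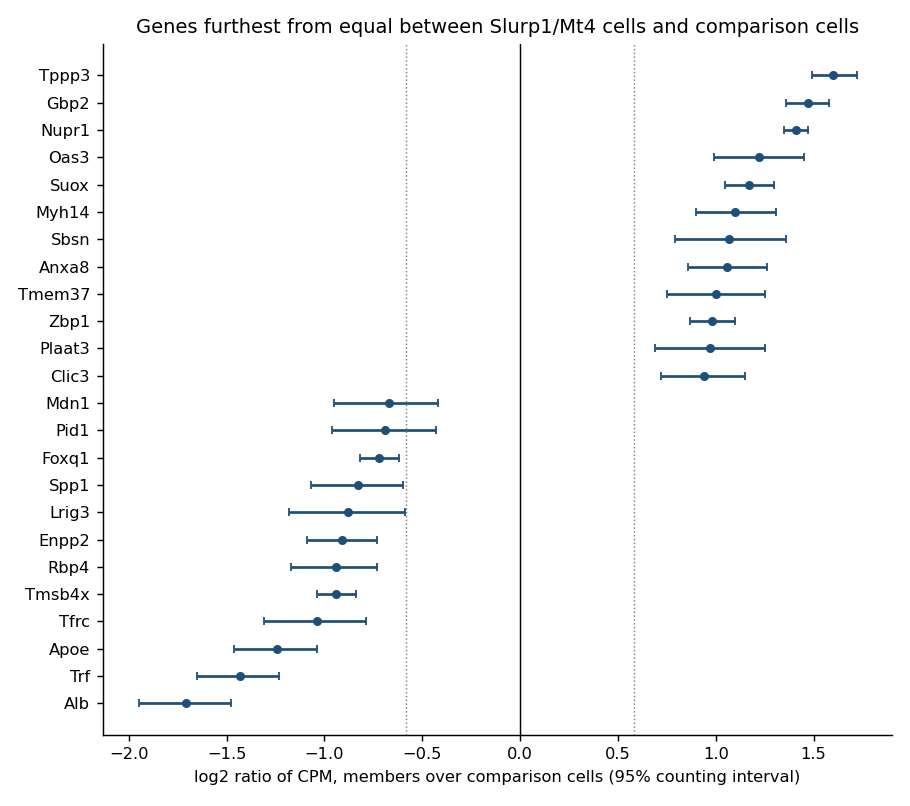
Log2 ratio of CPM of summed UMIs, members (602 cells) over comparison cells (1637 cells), for the 12 genes named as highest and the 12 named as lowest, with 95% counting intervals as bars and 1.5-fold as dotted lines. Tppp3, Gbp2 and Nupr1 lie above 1.4, and Alb is lowest at -1.71.

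Levels were also read by the number of Slurp1 and Mt4 UMIs, where bins with more UMIs also held deeper cells. Gate cells were placed in bins of 0, 1, 2 to 3, 4 to 7, 8 to 15 and 16 or more UMIs, holding 1637, 337, 312, 176, 88 and 26 cells, with median depths from 8061 to 19739.5 UMIs. Nupr1 stood at 241, 438, 532, 512, 840 and 1434 CPM across these bins. Tppp3 stood at 63.6, 129, 143, 214, 232 and 328 CPM. Gbp2 stood at 72.2, 157, 139, 200.2, 288 and 377 CPM. The order was thus broken between 2 to 3 and 4 to 7 UMIs for Nupr1 and between 1 and 2 to 3 UMIs for Gbp2. Krt14, a basal keratin gene, went from 206 to 666 CPM and Ly6a, a Ly6 family surface protein gene, from 794 to 1814 CPM. In the other direction, Alb stood at 69.2, 43.4, 26.8, 20.2, 15.7 and 1.78 CPM and Foxq1 at 221, 160, 152, 139, 101 and 74.98 CPM. Sema3c, the semaphorin gene that the study followed in cancer cells, showed no such order, with 96.0 CPM in comparison cells, 96.2 CPM in members and 73.2 CPM in the last bin. With comparison cells weighted to the depth of the members, the log2 ratios of Nupr1, Tppp3 and Gbp2 were 1.46, 1.89 and 1.38.

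**Figure D2:**
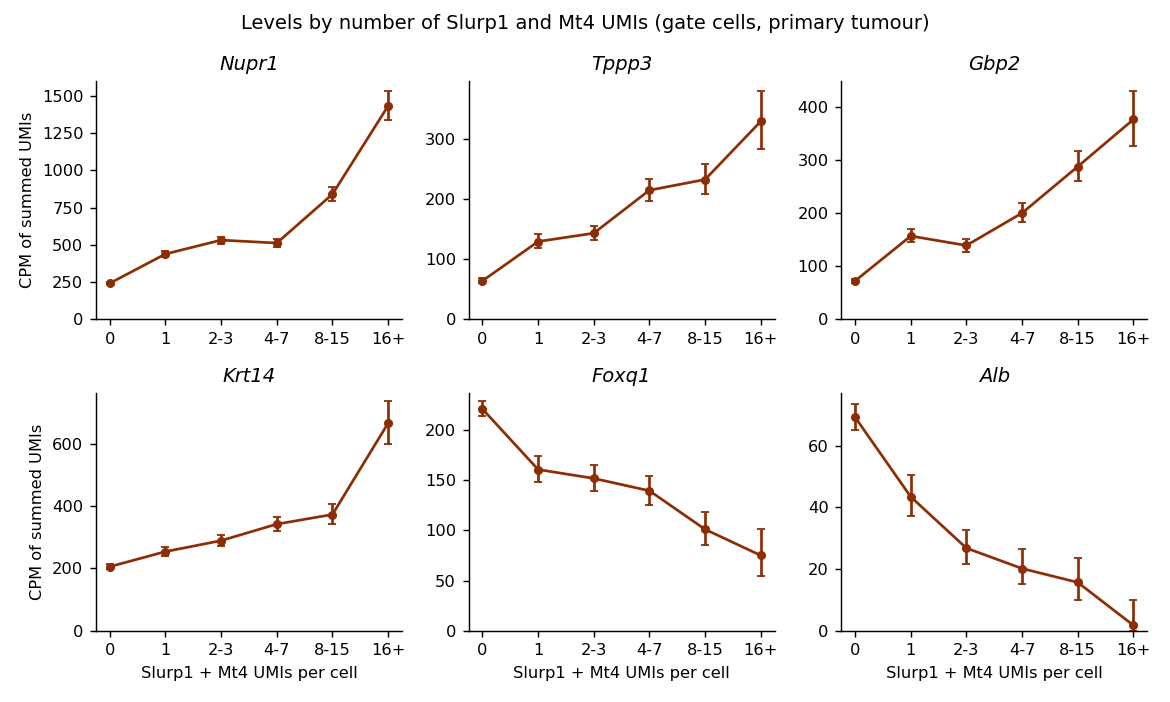
Level (CPM of summed UMIs) of 6 genes in gate cells of the primary tumour, by the number of Slurp1 and Mt4 UMIs per cell, with exact Poisson intervals. Nupr1, Tppp3, Gbp2 and Krt14 are highest in the last bin of 26 cells, while Foxq1 and Alb are lowest there.

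The metallothioneins and the Ly6 family were examined as the relatives of the selecting genes. Mt1 was at 1473 CPM [1447 to 1499] in members and 1226 CPM [1209 to 1244] in comparison cells, a log2 ratio of 0.26, and Mt2 at 1072 against 836 CPM, a ratio of 0.36. Neither reached 1.5-fold. Mt1 was found in 98.8% of members and 94% of comparison cells and Mt2 in 98.2% and 91.6%, and Mt3 had 1 UMI in each group. Of 15 tested genes of metallothionein and metal transport, 0 were called higher and 1 lower (Tfrc), beside 1.21% and 1.26% of all genes, with a median of -0.09. Ftl1, which encodes the ferritin light chain that stores iron, was at 3314 against 2497 CPM and a ratio of 0.41. Mtf1, which encodes the factor that binds metal response elements, was at 18.1 against 19.2 CPM. In the Ly6 and uPAR list, 5 genes were tested and 0 called, with a median of 0.33. Ly6a was at 1101 against 794 CPM, Ly6c1 at 515 against 350.2 CPM and Ly6e at 670.4 against 534 CPM. Lypd2, a neighbour of Slurp1 in family and locus that was singled out after its values were seen, fell under the limit of 10 CPM and had 12.5 CPM [10.2 to 15.1] in members against 3.85 CPM [2.93 to 4.97]. Slurp2 had 0 UMIs in members.

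Of 7 keratins tested, 2 were called higher and 0 lower, beside 1.21% and 1.26% of all genes. In the list 6 ratios were above 0, with a median log2 ratio of 0.52. Krt14 was at 346 CPM [333 to 359] against 206 CPM [199 to 213], a ratio of 0.75, and Krt6a, a keratin of activated epidermis, at 33.3 against 21.8 CPM, a ratio of 0.62. The Krt6a call was lost at 0.46 with depth weights, 0.26 with cluster weights, 0.56 without high doublet scores and 0.55 without cells with immune or erythroid RNA, while Krt14 had 0.63 with the cluster weights. The simple keratins Krt7 and Krt19 were at 729 against 510 CPM and 473 against 328 CPM, short of the threshold. Genes of the cornified envelope, the cross-linked shell of dead epidermal cells, were mostly not detected. In members 19 of 28 had 0 UMIs, among them Ivl and Lor, and of 4 tested only Sbsn was called higher, with a median of 0.12. Tgm1, the cross-linking transglutaminase gene, was under the limit at 11.4 against 5.29 CPM. Among 12 tested genes of desmosomes and tight junctions 0 were called in either direction and the median was -0.04.

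Of 19 interferon response genes tested, 4 were called higher (Gbp2, Zbp1, Irf7 and Igtp) and 0 lower, beside 1.21% and 1.26% of all genes. In the list 18 ratios were above 0 and the median was 0.50, against -0.05 over all genes. With comparison cells weighted to the clusters of the members, Igtp had a ratio of 0.39 in place of 0.76 and was no longer called. Irf7, which encodes a transcription factor of the interferon response, was at 47.3 against 25.1 CPM and Igtp, an immunity-related GTPase gene, at 129 against 76.5 CPM. Bst2, which encodes the viral restriction factor tetherin, was at 503 against 347 CPM, a ratio of 0.54. Gbp3 was the exception, at 305 against 341 CPM. In the antigen presentation list, 14 genes were tested, Psmb8 was called higher and H2-K1 lower, 12 ratios were above 0 and the median was 0.36. Psmb8, an immunoproteasome subunit gene, was at 229 against 142 CPM, a ratio of 0.68 that fell under the threshold at 0.56 with the cluster weights, and B2m, the light chain of class I molecules, at 1752 against 1324 CPM. H2-K1 was at 14.2 against 21.8 CPM, with 46.6% of the member UMIs in 5 cells, and its ratio of -0.62 was -0.23 without the cells that held immune or erythroid RNA and -0.42 with the cluster weights, in both cases no longer called. The call was lost at -0.47 to -0.58 under 5 further alternatives. These lists were chosen with earlier results of the data known.

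The other lists are given beside 1.21% of all genes called higher, 1.26% called lower and a median of -0.05 over all genes. S phase and proliferation genes had a median of -0.30 with 0 of 15 called and 2 ratios above 0, beside a gate that had already left out cells with Mki67, Top2a and Cenpf. That median was 0.05 when comparison cells were weighted to the clusters of the members. Secreted defence and S100 genes had a median of 0.30 over 18 genes with Slpi, a protease inhibitor gene, called lower (24.1 against 38.5 CPM, a ratio of -0.67 that was not called at -0.26 with the cluster weights, -0.38 without the 5% of cells with most UMIs, -0.48 as the mean of single-cell CPM and -0.54 at a mitochondrial limit of 10%) and S100a6 at 6687 against 5319 CPM. The medians were -0.08 for 16 p53 targets, -0.10 for 16 genes of the integrated stress response, -0.09 for 14 of the unfolded protein response and -0.01 for 17 antioxidant genes, all with 0 called. Hypoxia and glycolysis genes (19) had 0.07, which was -0.03 with the cluster weights, and immediate early genes (20) had -0.06, which ranged from -0.15 to 0.11 over the alternatives. For 13 basal and mesenchymal genes the median was 0.11, and it was -0.10 for members with 3 or more UMIs. Mammary luminal genes (7), cholesterol and fatty acid genes (15) and cell cycle inhibitors (8) had medians of -0.14, -0.19 and -0.04, with Trf called lower among the luminal genes. In the list of study genes, 0 of 5 tested were called. Nrp2 was at 94.3 against 74.3 CPM, Plxna1 at 17.4 against 26.0 CPM and Adar at 17.5 against 13.9 CPM. The Plxna1 ratio of -0.58 lay just short of 1.5-fold and ranged from -0.68 to -0.36 over the alternatives. Zbp1 and Rbp4, which the study also deleted in EO771 cells, were not in that list. Zbp1 was called higher, with a ratio of 0.98, and Rbp4 lower, with -0.94. Alox12 had 0 UMIs in members, which allows up to 0.360 CPM.

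**Figure D3:**
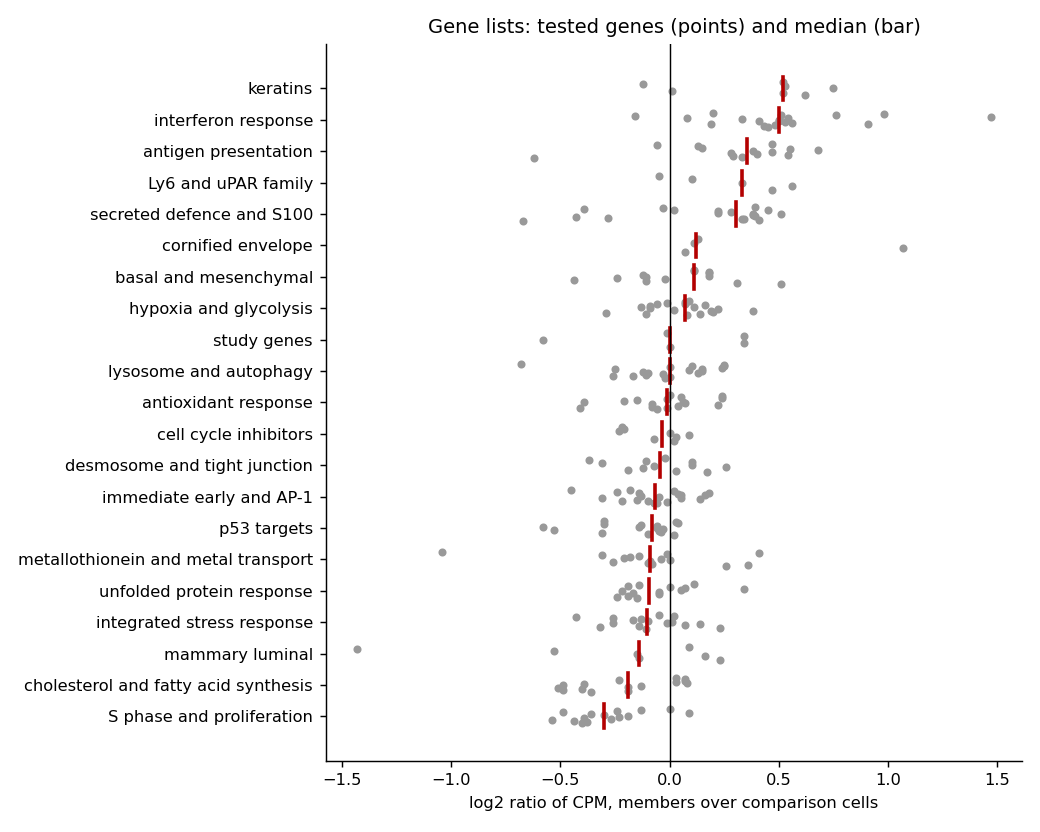
Log2 ratio of CPM, members over comparison cells, for each tested gene (points) of 21 gene lists and the list median (bars). Keratins (0.52) and interferon response genes (0.50) have the highest medians of these lists and S phase and proliferation genes (-0.30) the lowest.

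The 103 members with Slurp1 alone and the 270 with Mt4 alone were set against each other, leaving out the 229 members with both. Of 7118 genes, 820 were at least 1.5-fold higher in Slurp1-only members (11.5%) and 236 lower (3.32%), with a median log2 ratio of 0.17. The smaller groups widen the counting error, and several genes rested on few cells. Median depths were 12287 and 10691.5 UMIs. Tppp3 was at 401 CPM in Slurp1-only, 90.3 CPM in Mt4-only and 208 CPM in members with both, a ratio of 2.15 [1.95 to 2.35] between the first pair, and 5 cells held 42.1% of the Slurp1-only UMIs. Nupr1 was at 854, 424 and 765 CPM in the same order, a ratio of 1.01, and Gbp2 at 314, 120.1 and 232 CPM, a ratio of 1.39. All were above the comparison cells in Mt4-only members too, where Nupr1 stood against 241 CPM and Gbp2 against 72.2 CPM. Ly6a was at 1475 and 863 CPM. Ccnd1, the cyclin D1 gene, was at 805 and 431 CPM although it did not differ between members and comparison cells (547 and 546 CPM).

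Of 19 interferon response genes tested, 11 were called higher in Slurp1-only than in Mt4-only members and 0 lower, beside 11.5% and 3.32% of all genes, with a median of 0.66 against 0.17 over all genes. Isg15, a ubiquitin-like protein gene, was at 44.9 against 12 CPM, with 50.8% of the Slurp1-only UMIs in 5 cells, and Xaf1 at 52.5 against 18.1 CPM, with 43.4% in 5 cells. Of the cornified envelope genes 4 of 5 were called higher, with Sbsn at 49.8 against 15.5 CPM and Dmkn, which encodes the epidermal protein dermokine, at 207 against 89.7 CPM. Serpinb9b was at 214 against 76.0 CPM, Tnxb at 32.5 against 10.8 CPM (48.9% of its Slurp1-only UMIs in 5 cells) and Anxa8 at 83.6 against 29.8 CPM. Krt6a, at 57.4 against 20.5 CPM, had 71.1% of its Slurp1-only UMIs in 5 cells.

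Cldn4, Tnfrsf11b and Epcam were among the genes higher in Mt4-only members. Cldn4, a claudin gene of tight junctions, was at 106 CPM against 19.4 CPM in Slurp1-only members, a log2 ratio (Slurp1-only over Mt4-only) of -2.42 [-3.06 to -1.89], with 55.1 CPM in members with both and 86.5 CPM in comparison cells. Epcam was at 130.1 against 53.9 CPM, and Tnfrsf11b, the gene of the RANK ligand decoy receptor, at 173 against 38 CPM. Nkd1, a Wnt pathway inhibitor gene, was at 95 against 33.9 CPM and Sult1a1, a sulphotransferase gene, at 104 against 36.6 CPM. Gpx2, Khdc1a and Slc38a4 were also named by the rule, and 85.0%, 83.6% and 94.7% of their few Slurp1-only UMIs lay in 5 cells. For Cldn4, with 28 such UMIs, the share was 57.1%, for Tnfrsf11b 52.7% and for Nkd1 49.0%. Immediate early genes had 4 of 20 called higher in Mt4-only members, beside 3.32% of all genes, among them Fos at 479.9 against 254 CPM, and Sfn stood at 473 against 345 CPM without reaching 1.5-fold. Mt1 and Mt2 were at 1407 and 1065 CPM in Mt4-only and 1334 and 863 CPM in Slurp1-only members.

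**Figure D4:**
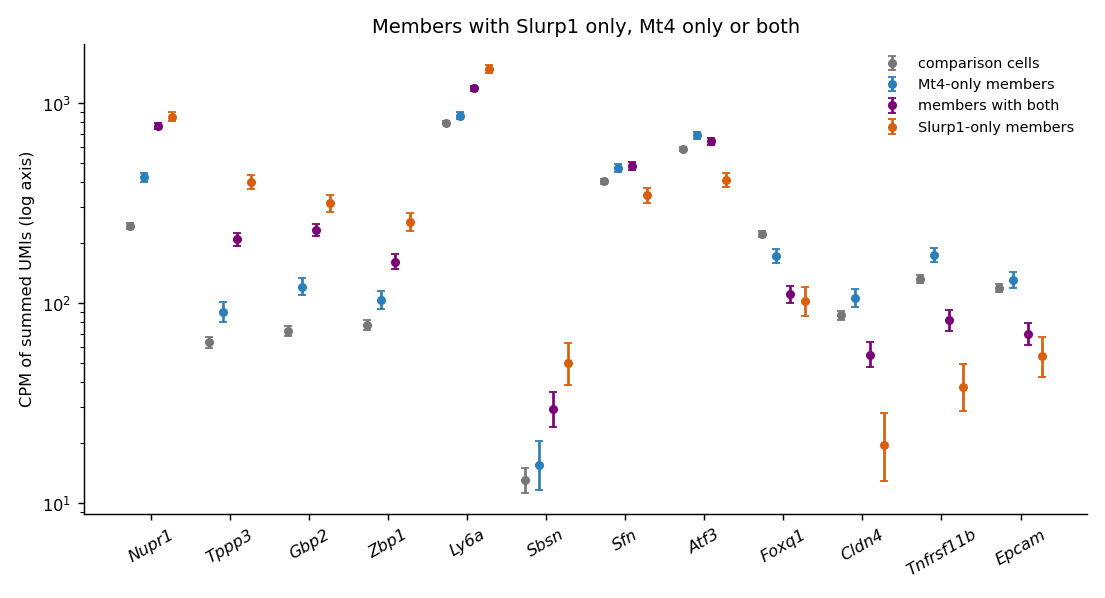
Level (CPM of summed UMIs, log axis) of 12 genes in comparison cells (1637), Mt4-only members (270), members with both genes (229) and Slurp1-only members (103), with exact Poisson intervals. Tppp3 and Gbp2 are highest in Slurp1-only members at 401 and 314 CPM, and Cldn4 is lowest there at 19.4 CPM.

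The members did not form a cluster of their own. When the 7030 keratin-positive cells of the library were clustered without Slurp1, Mt4, the other genes of the selection and cell cycle genes, members lay in 13 of 15 clusters. Cluster 8, led by Nupr1, Bnip3, Ndrg1 and Txnip, held 180 members, 29.9% of them, and 10.6% of the comparison cells. In it, 42.9% of gate cells were members, and Slurp1 and Mt4 stood at 179 and 175 CPM over all its cells. Clusters 6, 5 and 9 held 25.9%, 15.8% and 15.6% of members, against 28.2%, 28.8% and 10.8% of comparison cells. Cluster 9 was led by Cldn4, Btg2 and Gabrp, and 31.3% of its gate cells were members. Members were fewer in cluster 4 (5.75% of 87 gate cells), led by Slc38a4, and cluster 7 (8 of 100 gate cells), led by Stc1 with Alb among its leading genes. Clusters 12, 13 and 14, led by the leukocyte genes Il1b and Fcer1g, the T cell gene Cd3g and the stromal genes Fabp4 and Tagln, held 16, 3 and 3 members, and their part in the ratios was not tested. When comparison cells were weighted to the clusters of the members, the ratio was 1.19 for Tppp3, 1.07 for Nupr1 and 0.93 for Gbp2, and 50 genes were called higher and 54 lower in place of 86 and 90.

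Cells with 2 or more UMIs of Slurp1 and Mt4 together were found in every other cancer cell gate of the primary tumour. Their share was 30.2% [27.1 to 33.4] of 855 cells with Sprr1a and Cyp1a1 RNA, 18.9% [16.6 to 21.3] of 1124 cells with trefoil RNA and 23.8% [22.1 to 25.5] of 2475 cycling cells, against 23.4% in the gate of the members. These gates differed in depth, with medians of 17225, 14878, 28134 and 9106.5 UMIs. After thinning to 5000 UMIs the shares were 14.9%, 8.60%, 5.01% and 14.2%. Slurp1 was at 76.1, 42.1, 25.2 and 43.8 CPM and Mt4 at 83.3, 46.6, 23 and 83.8 CPM, so both were lowest per RNA in cycling cells. In 739 cells that met the gate of the members except for a mitochondrial share over 5%, 13.5% [11.1 to 16.2] had 2 or more UMIs, or 12.9% after thinning.

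**Figure D5:**
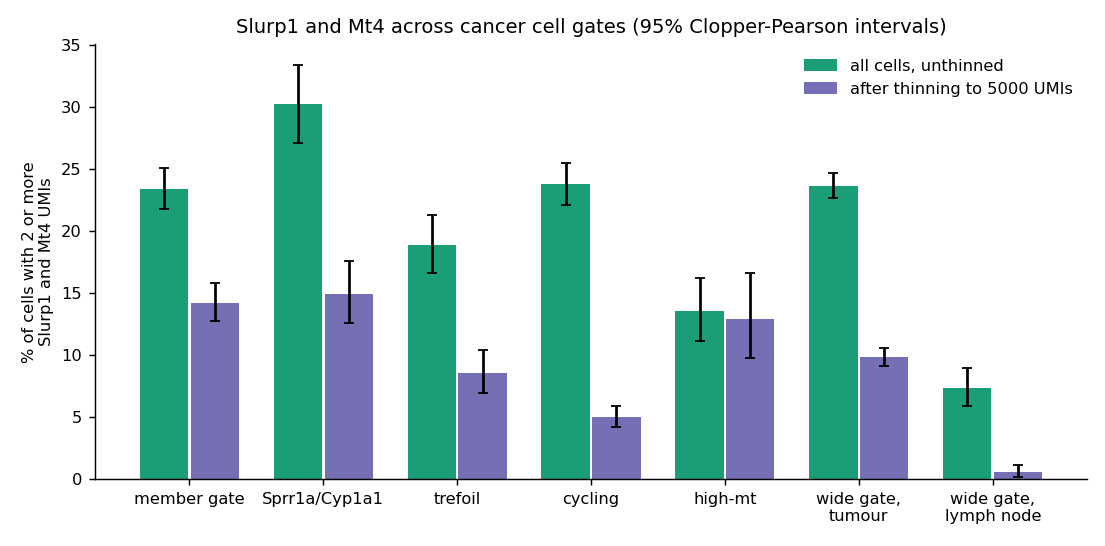
Percent of cells with 2 or more Slurp1 and Mt4 UMIs in cancer cell gates, before and after thinning to 5000 UMIs, with 95% Clopper-Pearson intervals. After thinning the gate of the members (14.2%) and the Sprr1a and Cyp1a1 gate (14.9%) are highest, and the wide gate, which has no limit on cycling, trefoil and Sprr1a and Cyp1a1 genes, is at 9.83% in the tumour and 0.563% in the lymph node.

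The genes named in the members were then read in these other gates, whose cells were not used in naming them but come from the same library. Among Sprr1a and Cyp1a1 cells, 11 of the 12 highest genes were at least 1.5-fold higher in cells with 2 or more UMIs than in cells with 0, where 2.15% of genes were called higher, and 10 of the 12 lowest were lower, where 6.81% were. In trefoil cells the counts were 12 (1.09% of genes called) and 10 (4.44%), and in cells with a high mitochondrial share 12 (7.84%) and 8 (4.81%). In cycling cells they were 7 (0.611%) and 3 (0.286%), with all 12 of the highest above a ratio of 0. Nupr1 had ratios of 2.35, 1.30, 1.14 and 1.5 in the Sprr1a and Cyp1a1, trefoil, high mitochondrial and cycling gates, and Tppp3 2.35, 2.33, 2.11 and 1.87. Gbp2 varied more, with 0.87, 1.02, 2.61 and 0.32. Alb was lower in all, with ratios of -2.04, -1.62, -1.55 and -1.05.

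In the lymph node library the same gate held 26 cells, of which 3 had 2 or more UMIs, 2 had 1 and 21 had 0 (11.5% [2.45 to 30.2]), too few for ratios. After thinning to 5000 UMIs the share in that gate was 3.93% [0.0505 to 22.6]. A wider gate without the limits on cycling, trefoil and Sprr1a and Cyp1a1 genes was added after this was seen, and it left out cells with 10 or more UMIs of the salivary gland genes Dcpp1, Dcpp2, Dcpp3, Bpifa2 and Pip. It held 1201 lymph node cells, 88 with 2 or more UMIs (7.33% [5.92 to 8.95]), and 7030 primary tumour cells, 1660 with 2 or more (23.6% [22.6 to 24.6]). Lymph node cells were deeper, at 45570 against 16191 median UMIs, and after thinning to 5000 the shares were 0.563% and 9.83%. Slurp1 was at 1.58 CPM [1.28 to 1.93] in the lymph node and 37.1 CPM [36.1 to 38.1] in the primary tumour, and Mt4 at 6.04 CPM [5.44 to 6.70] and 45.1 CPM [44.0 to 46.2]. With 1 library per tissue, tissue and library cannot be told apart. The 2 libraries shared 47 cell barcodes.

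The named genes were then read in the wide gate of the lymph node, and the difference between tissues was not tested. Among 4191 T cells of that library, taken without the keratin limit, 0.597% had 2 or more UMIs of the pair. Their median was 3443 UMIs per cell. With the keratin limit the share was 0.103% of 3891 T cells, at a median of 3307 UMIs. Cancer cells of the wide gate were deeper, at a median of 45570 UMIs. Their share was 7.33% unthinned and 0.563% after the thinning described above. How far free RNA in droplets accounts for the positive cells of the lymph node wide gate was not tested. Of the 12 highest, 7 had a mean of 10 CPM or more there, 1 was at least 1.5-fold higher in cells with 2 or more UMIs (0.712% of genes called) and 6 had ratios above 0. Of the 12 lowest, 2 were at least 1.5-fold lower (0.438%) and 5 had ratios below 0. In the wide gate of the primary tumour, which includes the members on which the genes were named, 10 of 12 were higher (0.566%) and 7 of 12 lower (0.487%). Myh14, a non-muscle myosin gene, was the 1 called higher in the lymph node, with a ratio of 0.77, and Apoe and Trf were the pair called lower, with -0.80 and -0.94. Tppp3, at 4.56 against 1.11 CPM there, was under the limit, with a ratio of 2.06, and Nupr1 had a ratio of -0.24 in the lymph node and 1.55 in the primary tumour.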

How the data were processed

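For each cell the deposited files give UMI counts by gene, as whole numbers without normalization, for 22620 genes in 12427 primary tumour cells (173317475 UMIs in all, median 9161 per cell) and 11617 lymph node cells (122207852 UMIs, median 2630). The authors aligned reads to GRCm38. The file headers name Cell Ranger 5.0.0 and the submitters' processing notes 2.1.1. The cell filters that the methods state were not applied to these counts, and no file gives cell types. Both tissues are 1 sample of 6 pooled mice each.

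The members, gene lists and limits were chosen with earlier results of these data known. Cells needed over 200 detected genes and at most 5% mitochondrial UMIs. The gate required 5 or more Krt8 and Krt18 UMIs at 500 CPM or more. It allowed at most 1 Ptprc UMI, at most 1 of Pecam1 and Cdh5 and fewer than 10 of Col1a1 and Col3a1. UMIs were summed over cells and scaled to counts per 1000000 UMIs (CPM) with exact Poisson intervals. Log2 ratios added 0.5 count to each sum, with exact intervals from how the summed counts divide. A gene was called at 1.5-fold with a mean of at least 10 CPM over both groups, leaving out Slurp1, Mt4 and mitochondrial genes. Shares used exact Clopper-Pearson intervals, and thinned shares are the number expected over all draws. Where no UMI was found, 3 counts set the upper limit. PCR duplicates are removed by UMIs, and intervals and limits cover counting error only. T cells and macrophages were cells with 2 or more Cd3 or 3 or more C1q UMIs and at most 1 of Krt8 and Krt18.

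Named genes were the 12 with the highest and the 12 with the lowest ratio at a mean of 20 CPM and a UMI in 20% of the cells of the higher group, without selection, ribosomal and unnamed genes. To these were added up to 4 called genes per list and direction (otherwise the 2 most abundant), Slurp1, Mt4, Sfn, Nupr1, Mt1 to Mt3, the genes of the study list, and the 8 highest and 8 lowest between Slurp1-only and Mt4-only members. Other genes of the lists are named as examples. Cells were clustered with scanpy 1.11.5 and igraph 0.11.9 (Leiden, resolution 1, 2000 variable genes, 30 components, 15 neighbours, seed 1) without selection genes and the cell cycle genes of Seurat 5.3.0. Doublets were scored with Scrublet at a rate of 6% and kept. The ratio and thinning steps were tested on simulated data. Sums and intervals used scipy 1.17.1, numpy 2.4.6 and pandas 2.3.3 in python 3.11.15, clustering also scikit-learn 1.9.0 and anndata 0.12.19, and plots matplotlib 3.10.9. Promoters came from a RefSeq table (GRCm38.p6) matched by symbol, and gene positions from GENCODE M21. Alternatives were other UMI, mitochondrial, keratin, depth and CPM limits, thinning, doublet removal, another average, weighting and centring. The called genes of 1 list are not reported here.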

Additional observations from a re-analysis of the deposited data

Results flagged for a closer look

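In the wide gates, 14 of the 67 named genes outside the selection had log2 ratios on opposite sides of 0 in the lymph node and the primary tumour. The ratios were of cells with 2 or more over cells with 0 Slurp1 and Mt4 UMIs, and each counting interval left out 0. The same count was not made over all genes, so no share stands beside it. Abundant genes can pass at small ratios, as H2az1 did in the lymph node at 0.05 [0.01 to 0.08]. The difference between tissues was not tested, and each tissue has 1 library. In the lymph node, Nupr1 had -0.24 (1.55 in the primary tumour), Vim -0.21, Cldn3 -0.18, Aldoa -0.25, Cdkn1a -0.32 and Atf3 -0.36, all above 0 in the primary tumour. The other 8 were above 0 in the lymph node and below it in the primary tumour, with Tmsb4x at 0.49, Enpp2 at 0.48, Mdn1 at 0.32, Sema3c at 0.22, Alb at 0.20, Spp1 at 0.20, Scd2 at 0.14 and H2az1 at 0.05. Most of these ratios were small in both tissues, with Nupr1 and Alb (-1.45 in the primary tumour) the largest in the primary tumour.

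Cells with a mitochondrial share over 5% stood outside the main comparison. Of these 739 cells, 100 had 2 or more Slurp1 and Mt4 UMIs, or 13.5% [11.1 to 16.2], at a median of 5505 UMIs per cell.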

How the results depend on the processing

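Under the alternatives run, no named gene called at 1.5-fold changed sign. Other called genes were not followed singly. The medians of 8 lists did, all of them with a main value from -0.30 to 0.11 (desmosome and tight junction, hypoxia and glycolysis, immediate early, antioxidant, mammary luminal, basal and mesenchymal, cell cycle inhibitor and S phase genes). A further 2 lists with a median of 0 in the main comparison had values on both sides of 0. Of the 67 named genes outside the selection, those that moved by more than their interval ranged from 0 (at most 6000 detected genes) to 39 (comparison cells weighted to the clusters of the members). Thinning to 5000 UMIs left 289 members. The count of genes higher in members was 86. It was 160 with members chosen after thinning, 50 with cluster weights, 362 at a mean of 1 CPM, 16 at 50 CPM and 16 at 2-fold. The count lower was 90. It was 146 with 3 or more UMIs, 165 after thinning, 54 with cluster weights, 601 at 1 CPM, 6 at 50 CPM and 18 at 2-fold. With centring, 62.3% of calls were higher, against 48.9%. Stricter limits test fewer genes or ask for a higher fold, and the cause of these changes in the counts was not tested.

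With cluster weights the list medians were 0.37 for keratins, -0.03 for hypoxia and glycolysis, -0.15 for immediate early genes and 0.05 for S phase genes. After thinning they were 0.47 for the Ly6 and uPAR family, 0.11 for immediate early genes and -0.07 for basal and mesenchymal genes. Immediate early genes had -0.14 at a mitochondrial limit of 10%, -0.15 with the mean of single-cell CPM and 0.05 with depth weights. Basal and mesenchymal genes had -0.10 at 3 or more UMIs and -0.03 without high doublet scores. The median of the interferon response list ranged from 0.32 to 0.56 over the alternatives. Shares of cells with 2 or more UMIs after thinning were 14.2% in the gate of the members, 14.9% in the Sprr1a and Cyp1a1 gate, 8.60% in the trefoil gate and 5.01% in the cycling gate.

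The removal of cells with immune or erythroid RNA, the cluster weights, the wide gate, the bins by UMI and the background cells without a keratin limit were chosen after the data were seen. An earlier form of that removal also counted Dcn and was dropped because Dcn was found in most cancer cells of the gate. No paired analysis was possible because each tissue has 1 library and the tissues share 1 replicate number. No replicate could be left out for the same reason. The number of cells limits the lymph node comparison, where 88 cells of 1 library had 2 or more UMIs. Depth limits the selection, since thinning to 5000 UMIs left fewer members.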
